A study of Mus musculus with 8 samples.

Results

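Prdm16, Mecom, Hlf, Myct1, Erg, Tal1, Lmo2, Gata2, Eya1 and Runx1 are regulators linked to blood stem cells. They were read here as 1 group in leukaemia cells labelled as having both Ezh1 and Ezh2, or as lacking Ezh1, Ezh2 or both. The 10 genes were chosen by symbol from the 31574 gene rows of the larger deposited table, and each matched 1 row. The choice followed no rule on their values, but earlier results of these data were known when it was made. All 10 passed the filter on low values, which left 18051 rows for testing. The libraries are RNA sequencing of bone marrow cells from the femur and tibia of C57BL/6 mice with c-kit+ acute myeloid leukaemia, 2 libraries in each of 4 groups. The first group has intact Ezh1 and carries an Ezh2 that the series describes as floxed and the sample labels as Ezh2+/+, and was given corn oil (Ezh1-present oil). The second has intact Ezh1 and was given tamoxifen, after which Ezh2 is labelled as deleted (Ezh1-present tamoxifen). The other groups are Ezh1-/- throughout and were given oil (Ezh1-null oil) or tamoxifen (Ezh1-null tamoxifen, labelled Ezh1-/- Ezh2-/-).

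Tamoxifen was dissolved in corn oil and injected intraperitoneally at 10 mg/kg/day for 5 doses, and the groups are labelled as 7 days after treatment. The labels name neither the Cre transgene nor its promoter, so the action of tamoxifen itself and the loss of Ezh2 cannot be told apart. The sample titles begin with Moz and the labels do not say whether the 2 replicates of a group are separate mice or separate leukaemias, so p-values measure the spread between these libraries, which may be technical. Each Ezh1 genotype may also be its own leukaemia, which cannot be told apart from Ezh1 loss.

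Ezh1 and Ezh2 are the alternative catalytic subunits of Polycomb repressive complex 2, which methylates lysine 27 of histone H3 and holds many developmental regulators silent, often at CpG-rich promoters. Among the 10 genes, Tal1, Lmo2, Gata2, Erg and Runx1 belong to a set of transcription factors that occupy regulatory regions of blood stem and progenitor cells together, Tal1 as an E-box binding factor bridged by the LIM protein Lmo2 to GATA factors. Prdm16, Mecom and Hlf are tied to the upkeep of blood stem cells, and Mecom, Hlf, Erg, Tal1, Lmo2 and Runx1 are known from leukaemia rearrangements. Eya1 is a phosphatase and coactivator of sine oculis homeobox factors, and Myct1 was first described as a target of the Myc oncoprotein and is expressed in endothelium and blood stem cells.

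RefSeq promoter sequences (assembly GRCm38.p6) were found for 8 of the 10 genes at 14 start sites, but not for Lmo2 or Eya1. The 250 bases before the start site are shown for 3 genes that shared one pattern over the groups (Prdm16, Hlf and Gata2) and for Myct1, which had the largest tamoxifen difference. They are written 5′ to 3′ along the gene, with every CpG in capitals.
Prdm16 (chr4:154636874-154637123, minus strand): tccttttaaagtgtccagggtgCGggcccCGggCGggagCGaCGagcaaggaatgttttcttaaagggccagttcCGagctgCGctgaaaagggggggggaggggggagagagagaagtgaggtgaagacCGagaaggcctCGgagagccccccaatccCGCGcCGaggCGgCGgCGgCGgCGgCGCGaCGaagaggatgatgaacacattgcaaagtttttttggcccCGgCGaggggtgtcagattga
Hlf (chr11:90390918-90391167, minus strand): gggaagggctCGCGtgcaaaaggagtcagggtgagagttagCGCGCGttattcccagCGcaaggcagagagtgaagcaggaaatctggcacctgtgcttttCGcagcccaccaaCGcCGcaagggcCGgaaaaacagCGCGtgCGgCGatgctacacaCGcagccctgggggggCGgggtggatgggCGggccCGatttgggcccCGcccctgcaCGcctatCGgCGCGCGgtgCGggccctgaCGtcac
Gata2 (chr6:88193641-88193890, plus strand): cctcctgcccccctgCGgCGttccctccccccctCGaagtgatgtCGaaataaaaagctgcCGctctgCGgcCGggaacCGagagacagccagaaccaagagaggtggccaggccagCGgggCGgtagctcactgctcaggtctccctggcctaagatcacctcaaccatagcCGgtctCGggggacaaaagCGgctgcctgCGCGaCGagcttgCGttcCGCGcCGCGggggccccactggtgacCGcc
Myct1 (chr10:5593478-5593727, plus strand): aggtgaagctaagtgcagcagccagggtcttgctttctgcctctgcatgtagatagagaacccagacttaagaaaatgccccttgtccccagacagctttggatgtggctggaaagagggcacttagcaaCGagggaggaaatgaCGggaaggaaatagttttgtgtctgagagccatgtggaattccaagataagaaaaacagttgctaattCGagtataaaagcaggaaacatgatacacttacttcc
The stretch held 22 CpGs in Prdm16, 26 in Hlf and 22 in Gata2, against 3 in Myct1. Over the 32851 promoters of the RefSeq table the median was 6, and 14.8% held at least 22, 9.6% at least 26 and 71.0% at least 3. Mecom, whose values were also highest in Ezh1-present tamoxifen, had 14 and 8 CpGs at its 2 starts. Tal1, whose mean was also highest in Ezh1-present tamoxifen, had 16 at the deposited gene start and 6 at the other. The first start of Erg had 14 CpGs and its inner starts 2 and 3. Runx1 had 2 at the distal start, next to the deposited end of the gene, and 27 at the inner start, but the gene-level values do not separate its start sites.

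Motifs of 5 factor families were searched on both strands of the same stretch. They were AGATAA for GATA factors, GGAAGT for ETS factors, TGTGGT for RUNX factors, CAGATG for TAL1 with an E protein, and TTACGTAA for HLF. The share of all promoters with a match was 10.0% for AGATAA, 19.7% for GGAAGT, 14.0% for TGTGGT, 14.4% for CAGATG and 0.1% for TTACGTAA. The printed Myct1 stretch held 1 AGATAA, starting 61 bases before the start site, and 1 GGAAGT on the opposite strand, whose last bases adjoin the start site. The printed stretches of Prdm16, Hlf and Gata2 held no match to any of the 5 motifs. Elsewhere AGATAA was found at an upstream start of Tal1 and an inner start of Erg, and CAGATG at 1 start of Mecom. No match overlapped another, and the matches describe the letters only.

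Values are log2 of a normalized read count, centred gene by gene, so 0 is the gene's median library and levels of different genes cannot be compared. The total count per library is unknown. The normalized value of 1 read, a rough measure of relative depth, was lowest at 0.746 in the deepest library (Ezh1-present tamoxifen replicate 1) and highest at 1.24 (Ezh1-null oil replicate 1). Library medians over rows above the floor lay between -0.0025 and 0.0031. A difference is a difference of 2 group means on this log2 scale, printed ± its limma standard error (SE, n = 2 a group), and is called where the Benjamini-Hochberg adjusted p over all rows is under 0.05. The deleted genes were read first. Ezh1 lay between 1.55 and 1.71 in the 4 Ezh1-present libraries and between -1.94 and -1.55 in the 4 Ezh1-null libraries, which matches the labels. Ezh2 was 0.25 and 0.23 in Ezh1-present oil, 0.09 and 0.03 in Ezh1-present tamoxifen, -0.12 and -0.03 in Ezh1-null oil, and -0.53 and -0.56 in Ezh1-null tamoxifen. A gene-level value also counts the exons outside a floxed part, so it does not check the deletion of Ezh2. Kit, which marks the labelled cells, was above the floor in every library and was higher in Ezh1-null than in Ezh1-present oil (difference 1.26 ± 0.17, adjusted p = 0.00848).

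**Figure D1:**
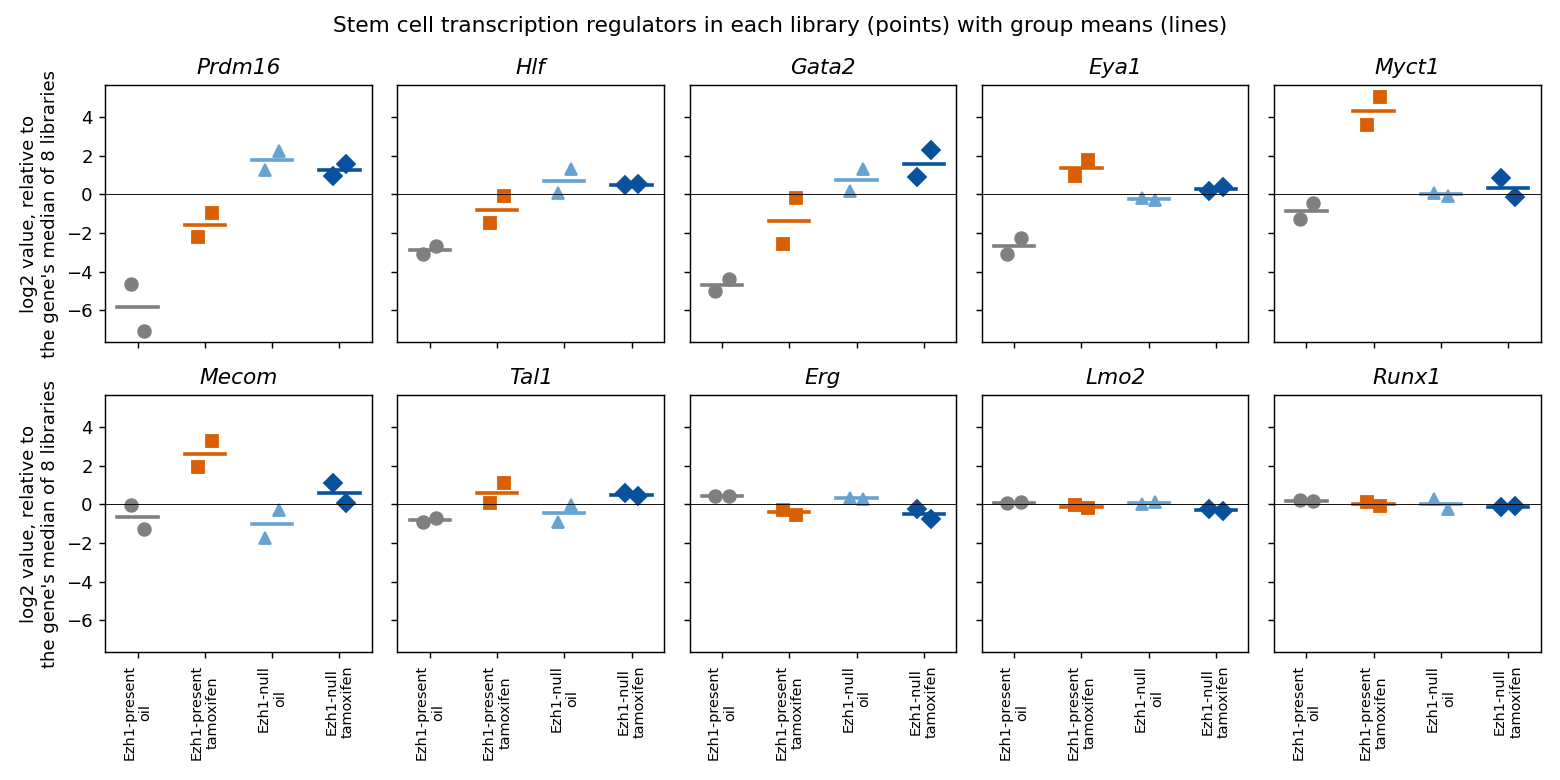
Log2 value of each of the 10 regulators in each library, relative to the gene's median over the 8 libraries (y axis), by group (x axis); points are libraries and lines are group means of 2. Prdm16, Hlf, Gata2 and Eya1 are lowest in Ezh1-present oil, Myct1 and Mecom are highest in Ezh1-present tamoxifen, and Erg (-0.74 to 0.44), Lmo2 (-0.35 to 0.13) and Runx1 (-0.26 to 0.28) differ least over the libraries.

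Prdm16, Hlf and Gata2 were lowest in the leukaemia with both Ezh1 and Ezh2 intact, higher after tamoxifen, and highest in both Ezh1-null groups. Prdm16 (gene 70673, mm10 chromosome 4, 154316125 to 154636873), a PRDM-family zinc finger protein of blood stem cells, was -4.63 and -7.05 in Ezh1-present oil and -2.22 and -0.95 in Ezh1-present tamoxifen. It was 1.26 and 2.27 in Ezh1-null oil and 0.95 and 1.57 in Ezh1-null tamoxifen. Both Ezh1-null groups overlapped each other and lay above both Ezh1-present groups, which did not overlap. Gata2 (gene 14461, chromosome 6, 88193891 to 88207032), a zinc finger factor of stem cells, mast cells and early megakaryocytes, was -4.98 and -4.39 in Ezh1-present oil and -2.55 and -0.18 in Ezh1-present tamoxifen. It was 0.18 and 1.34 in Ezh1-null oil and 0.88 and 2.31 in Ezh1-null tamoxifen. Its order was the same as for Prdm16 except that the Ezh1-null tamoxifen mean was the highest, with overlap between the Ezh1-null groups. Hlf (gene 217082, chromosome 11, 90336535 to 90390917), a PAR bZIP factor of long-lived stem cells, was -3.07 and -2.65 in Ezh1-present oil, -1.48 and -0.10 in Ezh1-present tamoxifen, 0.10 and 1.31 in Ezh1-null oil, and 0.48 and 0.54 in Ezh1-null tamoxifen. The spread within its groups was widest in Ezh1-present tamoxifen and narrowest in Ezh1-null tamoxifen.

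The Ezh1 genotype contrast in oil called all 3. Prdm16 was higher in Ezh1-null oil by 7.60 ± 0.92 (adjusted p = 0.0066), Gata2 by 5.45 ± 0.95 (adjusted p = 0.0158) and Hlf by 3.57 ± 0.59 (adjusted p = 0.0138). After tamoxifen the same contrast was 2.84 ± 0.92 for Prdm16 (adjusted p = 0.106), 2.96 ± 0.95 for Gata2 (0.103) and 1.30 ± 0.59 for Hlf (0.200), with no call. The combined loss of both enzymes against intact cells called all 3 again, at 7.10 ± 0.92 for Prdm16 (adjusted p = 0.00853), 6.28 ± 0.95 for Gata2 (0.0121) and 3.37 ± 0.59 for Hlf (0.0175). Tamoxifen alone in Ezh1-present cells gave 4.26 ± 0.92 for Prdm16, 3.32 ± 0.95 for Gata2 and 2.07 ± 0.59 for Hlf, with limma adjusted p of 0.105, 0.152 and 0.151, so none was called. In Ezh1-null cells it gave -0.50 ± 0.92, 0.83 ± 0.95 and -0.19 ± 0.59. The difference between both tamoxifen changes was -4.76 ± 1.31 for Prdm16 (adjusted p = 0.214), -2.27 ± 0.83 for Hlf (0.310) and -2.48 ± 1.34 for Gata2 (0.448), so a larger change in Ezh1-present cells was not shown.

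These calls depended on the libraries and on the fit. In oil, Prdm16 stayed called without any 1 of the 8 libraries, with differences of 6.39 to 8.81, but not with a trend of the variance on the mean value, in oil (adjusted p = 0.0621) or in the combined loss (0.0758). The lowest Prdm16 library, Ezh1-present oil replicate 2, may lie at the floor of the normalized values. Setting it there gave whole reads in 3 of the 7 other libraries, short of the 6 required. The sizes of the Prdm16 differences from that group may therefore depend on the floor. Gata2 was not called without Ezh1-present oil replicate 1 (adjusted p = 0.0827), Ezh1-present oil replicate 2 (0.0620) or Ezh1-null oil replicate 2 (0.0776). Hlf was not called without the same libraries, at 0.0752, 0.0559 and 0.0584. In the combined loss Hlf was not called without any 1 of the 4 libraries compared (0.0663 to 0.0869), nor Gata2 without Ezh1-present oil replicate 1 (0.0667), Ezh1-present oil replicate 2 (0.0535) or Ezh1-null tamoxifen replicate 2 (0.0596). Prdm16 spans 5930403L14Rik (chromosome 4, 154630691 to 154636367), whose reads cannot be told apart from those of Prdm16 where the 2 overlap, since the counting is not stated to use strand. That row differed by 0.56 ± 1.15 between the oil groups (adjusted p = 0.760).

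Eya1 and Myct1 were the 2 regulators called after tamoxifen in Ezh1-present cells, where both were highest. Eya1 (gene 14048, chromosome 1, 14168958 to 14310199) was -3.08 and -2.27 in Ezh1-present oil, 0.96 and 1.80 in Ezh1-present tamoxifen, -0.18 and -0.30 in Ezh1-null oil, and 0.18 and 0.37 in Ezh1-null tamoxifen. No 2 groups of Eya1 overlapped, and their order ran from Ezh1-present tamoxifen through Ezh1-null tamoxifen and Ezh1-null oil to Ezh1-present oil. Myct1 (gene 68632, chromosome 10, 5593728 to 5606791) was -1.25 and -0.45 in Ezh1-present oil, 3.57 and 5.06 in Ezh1-present tamoxifen, 0.06 and -0.06 in Ezh1-null oil, and 0.84 and -0.13 in Ezh1-null tamoxifen. Both Ezh1-present tamoxifen libraries stood far above the other 6, and the Ezh1-null groups overlapped.

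With tamoxifen in Ezh1-present cells, Myct1 rose by 5.16 ± 0.61 (adjusted p = 0.0424) and Eya1 by 4.05 ± 0.37 (adjusted p = 0.0276). In Ezh1-null cells the change was 0.35 ± 0.61 for Myct1 (adjusted p = 0.822) and 0.51 ± 0.37 for Eya1 (0.548). The difference between both changes was -4.81 ± 0.86 for Myct1 (adjusted p = 0.113) and -3.54 ± 0.53 for Eya1 (0.0802), short of the threshold. Between Ezh1 genotypes after tamoxifen, Myct1 was lower in Ezh1-null cells by -3.96 ± 0.61 (adjusted p = 0.0231), and Eya1 differed by -1.10 ± 0.37 (0.114). In oil, Eya1 was higher in Ezh1-null cells by 2.43 ± 0.37 (adjusted p = 0.0115), while Myct1 differed by 0.85 ± 0.61 (0.356). With both enzymes lost, Eya1 was 2.95 ± 0.37 above intact cells (adjusted p = 0.00806) and Myct1 1.20 ± 0.61 (0.211).

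Both genes had few reads. Normalized values near the floor came in steps, so that the number of reads could be recovered for Myct1, Eya1 and Mecom. For Eya1 all 7 other libraries gave whole reads once the lowest was set, and for Myct1 and Mecom 6 of 7 did. The other 7 genes did not reach 6 of 7. For Prdm16, setting the lowest library (Ezh1-present oil replicate 2) at the floor gave whole reads in the next 3 lowest, 6 in Ezh1-present oil replicate 1 and 38 and 68 in Ezh1-present tamoxifen, but not in the Ezh1-null libraries (240.59 to 557.59). Eya1 had no read above the floor in Ezh1-present oil replicate 1 and 2 reads in replicate 2, then 22 and 29 in Ezh1-present tamoxifen, 6 and 6 in Ezh1-null oil and 9 and 10 in Ezh1-null tamoxifen. Myct1 had the floor and 2 reads in Ezh1-present oil, 38 and about 78 (78.45) in Ezh1-present tamoxifen, 2 and 2 in Ezh1-null oil and 4 and 2 in Ezh1-null tamoxifen. The log2 values of Eya1 and Myct1 in Ezh1-present oil therefore depend on where the floor was set, and those of Prdm16 may. The fitted differences of these genes against that group are not bounds.

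**Figure D2:**
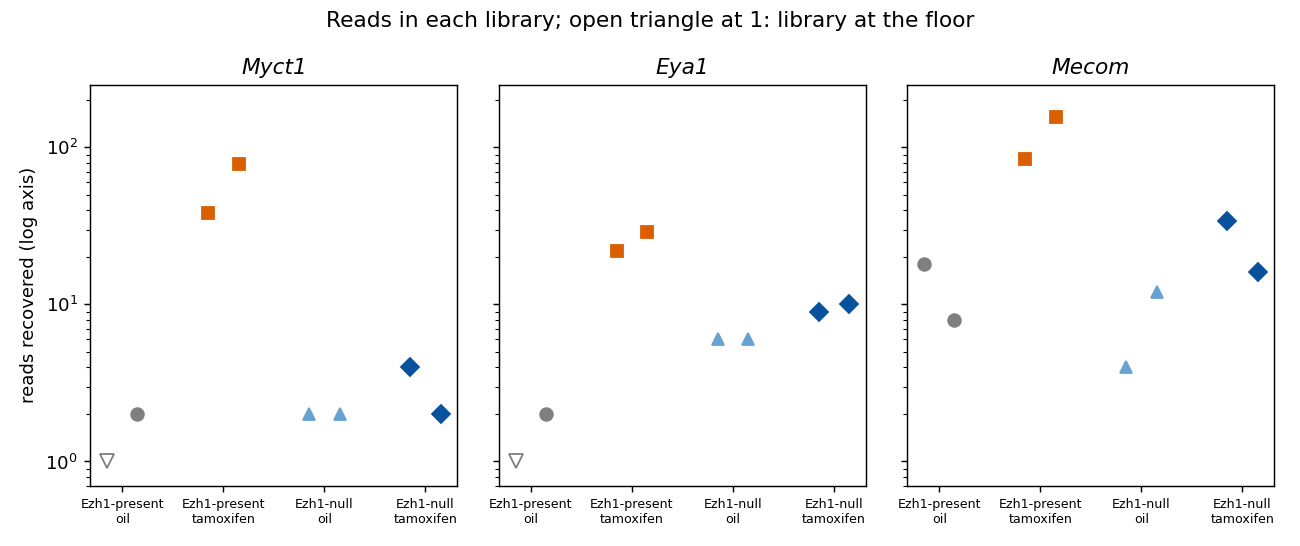
Reads recovered in each library for Myct1, Eya1 and Mecom (y axis, logarithmic) by group (x axis); an open triangle drawn at 1 marks a library at the floor. Myct1 has 2 to 4 reads in all 4 Ezh1-null libraries and 38 or more in both Ezh1-present tamoxifen libraries.

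The commonest step in every library was 2 reads, which was taken as 1 fragment for counting error, with exact 95% intervals that leave out the spread between libraries. Summed over the 2 libraries of a group, Myct1 had 58 fragments in Ezh1-present tamoxifen against 1 in Ezh1-present oil, a depth-scaled ratio of 56.4 (interval 9.74 to 2267). For Eya1 these were 26 against 1 and a ratio of 25.3 (4.16 to 1037). The Eya1 call between Ezh1 genotypes in oil rested on 6 fragments against 1, a ratio of 8.09 (0.981 to 372), an interval that includes a ratio of 1. For Myct1 between Ezh1 genotypes after tamoxifen the counts were 3 against 58, a ratio of 0.0648 (0.0130 to 0.199).

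The tamoxifen calls of Myct1 and Eya1 depended on which libraries were in the fit. Myct1 was not called without 7 of the 8 libraries (adjusted p up to 0.184), the exception being Ezh1-present tamoxifen replicate 1 (0.0320). Eya1 was called only without Ezh1-present tamoxifen replicate 1 (0.0296) or Ezh1-present oil replicate 2 (0.0476). Every one of these fits kept the direction, with differences of 4.42 to 5.90 for Myct1 and 3.63 to 4.47 for Eya1. After tamoxifen, the lower Myct1 of Ezh1-null cells was not called without Ezh1-present tamoxifen replicate 2 (0.0618), Ezh1-null tamoxifen replicate 1 (0.0723) or Ezh1-null tamoxifen replicate 2 (0.0912). The Eya1 difference in oil was not called without Ezh1-present oil replicate 1 (0.0514), Ezh1-null oil replicate 1 (0.0525) or Ezh1-null oil replicate 2 (0.0553).

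Mecom and Tal1 were also highest in Ezh1-present tamoxifen, but no comparison called them. Mecom (gene 14013, chromosome 3, 29951296 to 30548008), which encodes the zinc finger protein EVI1 and its longer PR-domain form, was -0.06 and -1.26 in Ezh1-present oil and 1.92 and 3.25 in Ezh1-present tamoxifen. It was -1.75 and -0.28 in Ezh1-null oil and 1.11 and 0.06 in Ezh1-null tamoxifen. Both oil groups overlapped, and each tamoxifen group lay above its own oil group. In reads this was 18 and 8, then 85 and about 157 (157.09), 4 and 12, and 34 and 16, in the same order of groups. Tamoxifen differed from oil by 3.24 ± 0.79 with Ezh1 present (adjusted p = 0.123) and by 1.60 ± 0.79 in Ezh1-null cells (0.379). By fragments alone the ratios were 9.13 (5.14 to 17.6) and 2.83 (1.24 to 7.25), for counting error only. A row that Mecom overlaps, Gm10258, was at the floor in all libraries.

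Tal1 (gene 21349, chromosome 4, 115057811 to 115071755) was -0.94 and -0.70 in Ezh1-present oil, 0.04 and 1.09 in Ezh1-present tamoxifen, -0.92 and -0.04 in Ezh1-null oil, and 0.56 and 0.41 in Ezh1-null tamoxifen. The 4 tamoxifen libraries lay above the 4 oil libraries, the tamoxifen groups overlapped each other, and so did the oil groups. The tamoxifen difference was 1.39 ± 0.44 with Ezh1 present (adjusted p = 0.177) and 0.96 ± 0.44 in Ezh1-null cells (0.347). Its Ezh1 contrasts were 0.34 ± 0.44 in oil and -0.08 ± 0.44 after tamoxifen, the latter 0.05 with quantile normalization.

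Erg, Lmo2 and Runx1 had the smallest range over the libraries, and Erg and Lmo2 were lower after tamoxifen in both genotypes. Erg (gene 13876, chromosome 16, 95360204 to 95586593), an ETS factor, was 0.44 and 0.44 in Ezh1-present oil, -0.32 and -0.53 in Ezh1-present tamoxifen, 0.35 and 0.26 in Ezh1-null oil, and -0.26 and -0.74 in Ezh1-null tamoxifen. All 4 oil libraries lay above all 4 tamoxifen libraries. The tamoxifen difference was -0.86 ± 0.18 with Ezh1 present (adjusted p = 0.0984) and -0.81 ± 0.18 in Ezh1-null cells (0.0927). Erg fell with both enzymes lost against intact cells, by -0.94 ± 0.18 (adjusted p = 0.0219), a call that was lost without Ezh1-present oil replicate 1 (0.0929), Ezh1-present oil replicate 2 (0.0891) or Ezh1-null tamoxifen replicate 2 (0.0552).

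Lmo2 (gene 16909, chromosome 2, 103957995 to 103981878) was 0.04 and 0.10 in Ezh1-present oil, -0.02 and -0.22 in Ezh1-present tamoxifen, 0.02 and 0.13 in Ezh1-null oil, and -0.25 and -0.35 in Ezh1-null tamoxifen. The oil groups overlapped, and each lay above both tamoxifen groups. Its tamoxifen difference was -0.19 ± 0.11 with Ezh1 present (adjusted p = 0.378) and -0.38 ± 0.11 in Ezh1-null cells (0.155). Runx1 (gene 12394, chromosome 16, 92601466 to 92826066), the DNA-binding partner of Cbfb, was 0.21 and 0.17 in Ezh1-present oil, 0.10 and -0.10 in Ezh1-present tamoxifen, 0.28 and -0.26 in Ezh1-null oil, and -0.13 and -0.11 in Ezh1-null tamoxifen. The 2 Ezh1-null oil libraries were its highest and its lowest, so the spread within that group was as wide as the spread over all 8 libraries. Its differences in the 5 contrasts of 2 groups lay between -0.31 and -0.12, with adjusted p of at least 0.304.

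**Figure D3:**
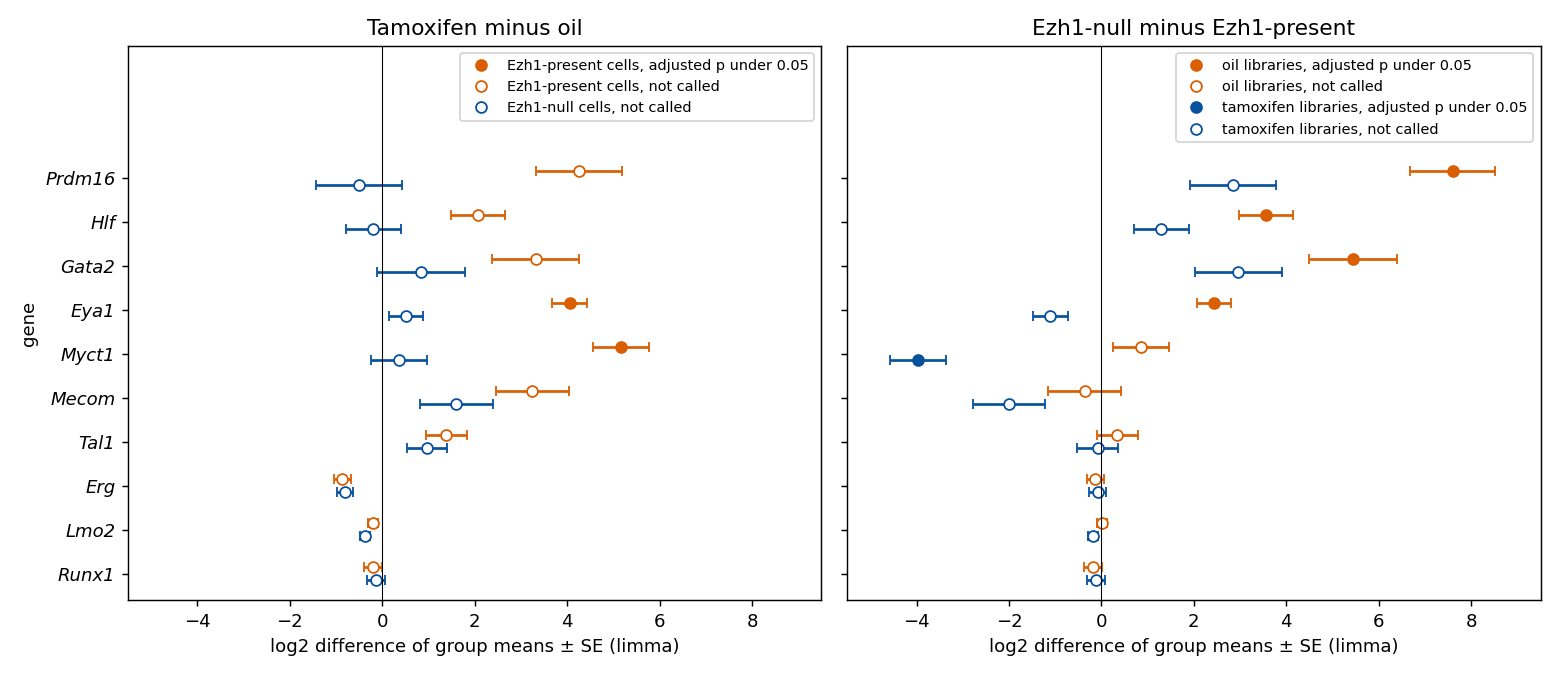
Log2 difference of group means ± standard error from limma (x axis) for each regulator (y axis), tamoxifen minus oil on the left and Ezh1-null minus Ezh1-present on the right; filled points have an adjusted p under 0.05. The filled points are Eya1 and Myct1 on the left, and Prdm16, Hlf, Gata2 and Eya1 in oil and Myct1 after tamoxifen on the right.

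Over the 10 regulators, tamoxifen with Ezh1 present called 2 of 10, both higher, against 0.903% of all rows in either direction, and the groups of all 10 did not overlap, against 53.8%. In Ezh1-null cells limma called 0 of 10, with 2 at an unadjusted p under 0.05, against 3.4% of rows called, and 5 of 10 did not overlap, against 49.2%. Ezh1 loss in oil called 4 of 10, all higher, against 24.9% of rows, and 6 of 10 did not overlap, against 65.8%. Ezh1 loss after tamoxifen called 1 of 10, lower, against 12.2%, and 8 of 10 did not overlap, against 62.5%. The combined loss called 5 of 10, of which 4 were higher, against 23.4%, and 10 of 10 did not overlap, against 66.8%. For the difference between the tamoxifen changes limma called 0 of 10, with 4 at an unadjusted p under 0.05, against 0.476% of rows called. The median difference over the 10 was 2.66 for tamoxifen with Ezh1 present and 0.11 in Ezh1-null cells, 0.60 for Ezh1 loss in oil, -0.10 for Ezh1 loss after tamoxifen and 1.28 for the combined loss, where the medians over all rows were 0.0145, 0, -0.0404, -0.0023 and -0.0018. The contrasts share groups, so their counts are not independent of each other. The 10 were also chosen with earlier results of these data known.

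Partners of these regulators in protein complexes are described by their counts. Of 15 partners in complexes, tamoxifen called none in either genotype by limma (3 and 4 at an unadjusted p under 0.05), and Ezh1 loss in oil called 1 higher and 5 lower, where 24.9% of all rows were called. The higher one was Dach1, a nuclear cofactor that works with Eya proteins, at -3.82 and -3.85 in Ezh1-present oil and 0.03 and -0.03 in Ezh1-null oil (difference 3.83 ± 0.67, adjusted p = 0.0162). Among the lower ones were Cbfb, the partner of Runx proteins (-0.39 ± 0.09, adjusted p = 0.0358), the E protein Tcf4 (-0.98 ± 0.19, 0.0223) and Ssbp2, which stabilises the Lmo2 cofactor Ldb1 (-0.79 ± 0.14, 0.0178). After tamoxifen Ezh1 loss called 0 higher and 3 lower (12.2% of all rows called), and the combined loss 1 and 4 (23.4%). In each of these contrasts taken by itself, 9 or more of the 15 were not called. The list's median difference stayed between -0.27 and 0.13 in all 6 contrasts.

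Of 14 tested paralogues, none was called by limma for tamoxifen in either genotype (5 and 5 at an unadjusted p under 0.05). Ezh1 loss in oil called 5 higher and 2 lower (24.9% of all rows called), and the combined loss 5 and 2 (23.4%). Fli1, the ETS factor closest to Erg, rose with Ezh1 loss in oil by 1.08 ± 0.12 (adjusted p = 0.00583), where Erg differed by -0.13 ± 0.18. Lmo4 rose by 2.00 ± 0.13 (adjusted p = 0.00243) and Lmo1 by 1.09 ± 0.21 (0.0197), where Lmo2 differed by 0.01 ± 0.11. Tef, a PAR bZIP relative of Hlf, fell by -0.74 ± 0.10 (adjusted p = 0.00779), opposite to Hlf. Dbp, another PAR bZIP relative, went the same way as Hlf. It was -0.39 and -0.53 in Ezh1-present oil and 0.71 and 0.58 in Ezh1-null oil. Of the GATA relatives of Gata2, Gata1 had a higher mean in Ezh1-null oil (0.31 against -3.78), as Gata2 did. Gata3 had a lower one (-1.61 against -0.64).

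Other regulators of blood stem cells went both ways. Of 22 tested, tamoxifen called 1 higher with Ezh1 present (0.903% of all rows called) and 2 lower in Ezh1-null cells (3.4%). Ezh1 loss in oil called 4 higher and 6 lower (24.9%), Ezh1 loss after tamoxifen 4 and 7 (12.2%), and the combined loss 7 and 6 (23.4%). Meis1, a homeobox factor of leukaemia stem cells, was 1.05 and 0.85 in Ezh1-present oil, 0.46 and 0.37 in Ezh1-present tamoxifen, -0.44 and -0.37 in Ezh1-null oil, and -1.10 and -1.01 in Ezh1-null tamoxifen, the reverse order of Gata2. It fell by -2.01 ± 0.11 with both enzymes lost (adjusted p = 0.00196). Hhex (-1.30 ± 0.12, adjusted p = 0.00435), Nkx2-3 (-1.25 ± 0.10, 0.00364) and Bcl11a (-1.07 ± 0.09, 0.00375) fell as well in that contrast. These named genes all fell, while 7 others of the list were called higher in the same contrast. Of 15 surface and signalling genes of stem cells, the combined loss called 3 higher and 1 lower, where 23.4% of all rows were called. The called genes included Ly6a, the antigen Sca-1 (2.52 ± 0.34, adjusted p = 0.00939), and Flt3, a receptor of multipotent progenitors (-2.78 ± 0.50, 0.0186).

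Markers of mast cells, neutrophils and myeloid progenitors, averaged over each list, were lowest in Ezh1-present oil, as were Gata2, Prdm16 and Hlf. In bulk libraries fewer cells of a type and less RNA per cell cannot be told apart. The mean of the 7 tested mast cell and basophil markers, on the same log2 scale, was -2.90 and -2.86 in Ezh1-present oil, -1.16 and 0.08 in Ezh1-present tamoxifen, 0.24 and 1.36 in Ezh1-null oil, and 1.18 and 1.81 in Ezh1-null tamoxifen. Limma called 4 of 7 higher with Ezh1 loss in oil (24.9% of all rows called in either direction), 2 of 7 after tamoxifen (12.2%) and 5 of 7 with the combined loss (23.4%). For tamoxifen with Ezh1 present it called 0 of these 7 markers (6 at an unadjusted p under 0.05), 0 of 9 neutrophil (7) and 0 of 6 myeloid progenitor markers (4). Ms4a2, a subunit of the IgE receptor, was -6.83 and -5.62 in Ezh1-present oil and 1.96 and 3.32 in Ezh1-null tamoxifen, and Cpa3, a mast cell protease, was -4.12 and -4.89 and then 0.81 and 2.24. Other markers of this list differed. Hdc had its highest group mean in Ezh1-present oil (0.45), and Mcpt8 its lowest in Ezh1-present tamoxifen (-1.12, against -0.27 in Ezh1-present oil). Tpsb2 was at the floor in both oil groups. Cma1 and Tpsab1, which encode mast cell proteases, had fewer than 2 libraries above the floor and were not tested. The means of 9 neutrophil markers ranged from -3.10 in Ezh1-present oil to 1.82 in Ezh1-null tamoxifen, and those of 6 myeloid progenitor markers, Kit among them, from -2.52 to 1.08, with 6 of 9 and 6 of 6 called higher with Ezh1 loss in oil. The part of these cells in the values of Gata2, Prdm16 and Hlf was not tested.

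Markers of megakaryocytes and endothelium, averaged over each list, were highest in Ezh1-present tamoxifen, as were Mecom, Myct1 and Eya1. Red cell markers were also high in 1 Ezh1-null oil library. The mean of 11 megakaryocyte markers was -0.26 and 0.13 in Ezh1-present oil, 0.89 and 2.23 in Ezh1-present tamoxifen, and between -0.71 and 0.06 in the Ezh1-null libraries. That of 12 endothelial markers was -0.01 and -0.14, then 0.52 and 1.46, and between -0.95 and 0.05. That of 7 erythroid markers was -2.02 and -1.38, then -0.54 and 1.99, and then 0.08 and 1.60 in Ezh1-null oil and 0.31 and -0.05 in Ezh1-null tamoxifen. Ezh1-present tamoxifen replicate 2 was the highest library for all 3 lists, and tamoxifen with Ezh1 present called 0 markers of each by limma, with 6, 3 and 4 at an unadjusted p under 0.05. Cdh5, the cadherin that defines endothelium, differed by 0.60 ± 0.26 in that contrast (adjusted p = 0.276), and Ppbp, a platelet chemokine, was 1.48 and 2.53 in Ezh1-present oil and 2.88 and 5.44 in Ezh1-present tamoxifen. Other markers of these lists had their highest group mean elsewhere. These were Gp9 in Ezh1-null oil (0.47), Itgb3 (0.74), Gp6 (0.72) and Flt1 (0.82) in Ezh1-null tamoxifen, and Gp1bb (0.71) and Pecam1 (0.16) in Ezh1-present oil. The mean of 10 T and B cell markers ran from -1.94 in Ezh1-present oil to 1.31 in Ezh1-null oil. The peak was not particular to these cell type lists. The mean of the 15 stem cell surface and signalling genes was 0.52 and 1.45 in Ezh1-present tamoxifen. It lay between -0.66 and 0.33 in the other groups. For tamoxifen with Ezh1 present limma called 0 of these 15 genes (0.903% of all rows called), with 10 at an unadjusted p under 0.05. Without Ezh1-present tamoxifen replicate 2, Myct1 differed between tamoxifen and oil by 4.42, Eya1 by 3.63, Mecom by 2.58 and Tal1 by 0.86. The part of these cells in the 4 differences was not tested.

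**Figure D4:**
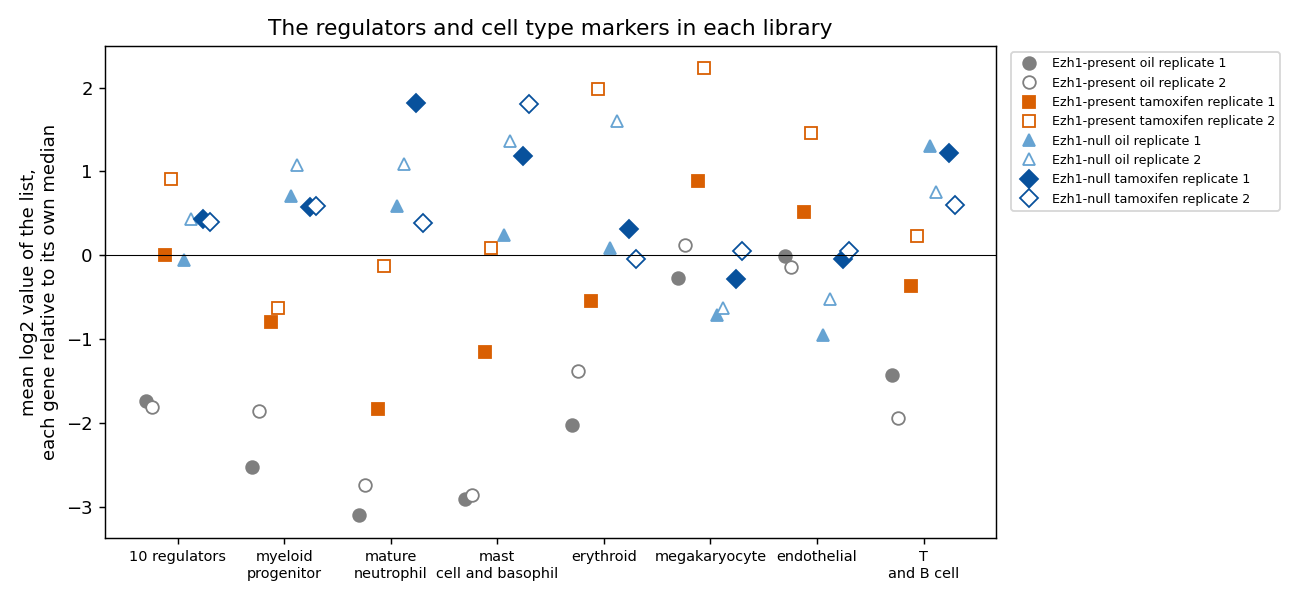
Mean log2 value over the 10 regulators and over 7 lists of cell type markers in each library, each gene relative to its own median (y axis), by list (x axis); colour and shape give the group, filled and open points replicates 1 and 2. The 2 Ezh1-present oil libraries are lowest for the regulators (-1.73 and -1.80) and for the myeloid, mast cell, erythroid and lymphoid markers, and Ezh1-present tamoxifen replicate 2 is highest for the erythroid, megakaryocyte and endothelial markers.

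The profiles of the 10 genes over the 8 libraries were compared by Pearson's r, as a description of likeness with no test, since the 8 values fall into 4 groups and all genes share libraries and depth. Prdm16, Hlf and Gata2 were alike, with r of 0.95 between Prdm16 and Hlf, 0.94 between Prdm16 and Gata2 and 0.97 between Hlf and Gata2. Mecom was close to Myct1 (0.87) and Tal1 (0.82) and far from Prdm16 (0.09). Erg and Lmo2 were alike (0.89) and both ran opposite to Tal1 (-0.86 and -0.74), although the protein products of Tal1 and Lmo2 act in 1 complex.

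Over all rows tested, Prdm16 was most like Slc35a3 (r = 0.992), Dach2 (0.989) and Tmtc3 (0.988). Gata2 was most like Fut8 (0.993), Tmem128 (0.991) and Ssx2ip (0.990), and Hlf most like Larp1b (0.995), Mpp7 (0.991) and Spon2 (0.991). The rows nearest Eya1 were Selp (0.995), Klrd1 (0.974) and 4930430F08Rik (0.974), and those nearest Myct1 were C1qtnf6 (0.974), P2ry13 (0.973) and Cyb5 (0.969). Mecom was nearest Slc6a4 (0.984), Col18a1 (0.961) and Sqle (0.958), and Tal1 nearest Pdcd10 (0.981), Ear1 (0.975) and H2-Eb1 (0.974). For Erg they included Ccdc75 (0.978) and Arid5b (0.969), for Lmo2 they were Gm15834 (0.972), Mknk2 (0.966) and Ccdc33 (0.958), and for Runx1 they were Erdr1 (0.980), Slc7a13 (0.950) and Cd93 (0.940). Of these rows, Ccdc33 was above the floor in 5 libraries and Slc7a13 in 4. None of the 10 regulators was among the 3 rows most like another.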

How the data were processed

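RNA sequencing was measured in 8 libraries of 4 groups. The submitters' processing notes name the mm10 build. The sources used here name no aligner, counter or scaling. Per the file headers, the deposited tables kept entities between percentiles 20 and 100 of raw data. Their normalized columns proved to be log2 values with a floor at a normalized value of 1, which the authors centred on each gene's median (largest absolute row median 9.55e-07). The log2 changes that the authors deposited equalled differences of group means to within 5.4e-07. The deposited tables also give these changes as a fold ratio and as a signed fold score, neither of which was used. The larger table has 31574 rows, and the smaller repeats 4576 with a fold of at least 2, among them 7 of the 10 regulators.

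Samples were grouped by labelled genotype. limma 3.58.1 in R 4.3.3 was fitted without a trend to all 8 libraries, with 1 coefficient a group and no block, on 18051 rows (2 or more libraries above the floor) (4 residual and 1.24 prior degrees of freedom). Benjamini-Hochberg adjustment ran over all rows, in each of 6 comparisons. The procedure was run on simulated normal values that had no floor, so that run does not check calls of genes near the floor. Exact permutation tests were not used, since 2 libraries against 2 cannot give p below 0.333. The floor was recognised from ties of 2 or more libraries at a row's minimum. The value of 1 read per library came from low rows, where 67.3% to 73.8% of values lay within 0.01 of a whole read. Reads of a gene were accepted where 6 of 7 libraries lay within 0.012 of whole numbers (or 5e-05 of the count where that was more). Reads were sought only for the 10 regulators and accepted for 3 of them, so no test on counts was run. Promoters are from RefSeq's GRCm38.p6 table, the assembly that mm10 names. Tables and plots used pandas 2.3.3 and matplotlib 3.10.9 under Python 3.11.15.

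The 10 regulators and the gene lists were chosen with earlier results of these data known. Named genes are the 10, Ezh1 and Ezh2, up to 4 genes a list with the smallest adjusted p among those called, genes that define a cell type, and the 3 rows most like each regulator (1 such row is not reported here). Symbols of the lists without a row were not analysed here. Alternatives were other filters, scalings, groups in the fit, moderation, a replicate block and leaving out each library.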

Additional observations from a re-analysis of the deposited data

How the results depend on the processing

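Across 16 alternatives, 870 of 950 values for single regulators kept their direction and their side of the threshold, 53 lost a call, 5 gained one and 22 changed sign. No value that was called changed sign. For tamoxifen with Ezh1 present, 2 regulators were called, against 0 with no filter, 0 with only the groups compared, 0 with a replicate block, 1 with robust moderation, 1 with a variance trend, and 0 to 2 without 1 library. For Ezh1 loss after tamoxifen the count of 1 became 0 with no filter, 0 with only the groups compared, 0 with the trend, 2 with the replicate block, and 0 to 1 without 1 library. The combined loss gave 5, against 3 with no filter and 2 to 5 without 1 library, and Ezh1 loss in oil 4, against 1 to 4 without 1 library. Single calls also changed. In oil, Gata2 was not called with no filter (adjusted p = 0.0508), Hlf with only the groups compared (0.0516), nor Prdm16 with the trend (0.0621). In the combined loss, no filter lost Hlf (0.0516) and Erg (0.0519), only the groups compared lost Erg (0.0812) and gained Tal1 (0.0339), and the trend lost Prdm16 (0.0758). Lmo2 was gained there with quantile normalization (0.0495) and with only rows where ties showed no library at the floor (0.0469). The latter setting kept Myct1 and Eya1, although each was at the floor in Ezh1-present oil replicate 1. The difference between the tamoxifen changes gave 0, against 1 with quantile normalization (Myct1, adjusted p = 0.0497). Where a library was left out of a group, the lone one was assumed to vary like the other groups.

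The same-numbered libraries of the 6 pairs of groups had correlations of their deviations between -0.09 and 0.12 over 15517 rows, so the numbers do not show a pairing, and the blocked counts are values under another design. Over all rows, the 163 called for tamoxifen with Ezh1 present became 46 with no filter, 108 with quantile normalization, 0 with only the groups compared and 23 with the replicate block. The 614 in Ezh1-null cells became 215, 448, 240 and 364 in the same order. The 4493 for Ezh1 loss in oil became 3217, 3438, 2531 and 3749, the 2204 after tamoxifen 1187, 2841, 27 and 1179, and the 4229 for the combined loss 3094, 4004, 2514 and 3377. The 86 for the difference between the tamoxifen changes became 55 with no filter, 39 with quantile normalization and 5 with the replicate block. They became 6 with only rows where ties showed no library at the floor, and 8 with the trend.

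The changes of sign were all in small differences that were not called, and the cause was not tested. Quantile normalization gave 0.048 for Tal1 with Ezh1 loss after tamoxifen, and -0.073 for Erg and -0.064 for Runx1 in the difference between the tamoxifen changes. Without 1 library, tamoxifen in Ezh1-null cells ranged from -0.40 to 0.14 for Runx1, from -1.01 to 0.0030 for Prdm16, from -0.80 to 0.41 for Hlf and from -0.13 to 0.84 for Myct1. Ezh1 loss in oil ranged from -1.09 to 0.37 for Mecom, from -0.048 to 0.062 for Lmo2, from -0.095 to 0.78 for Tal1 and from -0.46 to 0.090 for Runx1. Ezh1 loss after tamoxifen ranged from -0.32 to 0.16 for Erg and from -0.61 to 0.45 for Tal1. The difference between the tamoxifen changes ranged from -0.18 to 0.29 for Erg, from -0.95 to 0.10 for Tal1 and from -0.21 to 0.34 for Runx1. Depth limits Myct1 and Eya1, whose Ezh1-present oil libraries hold 1 fragment in all, and libraries at the floor cannot vary, which can make p too small.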
